A study of Arabidopsis thaliana with 12 samples.

Results

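WAG2 (AT3G14370) is a protein-coding gene on chromosome 3 of Arabidopsis thaliana. It was chosen by its measured signal, as a gene whose level was higher than mock in all 3 treated groups and highest with IAA. It is 1 gene with 1 probe set among the 22746 non-control probe sets of the array, of which 15922 passed the filter on dim signals. Its differences between groups are therefore given as a description, with no test, apart from the comparison of IPyA with L-AOPP alone. The choice did not set these groups against each other. It did place both between mock and L-AOPP+IAA, which limits how far apart they can lie, so that test is not free of the choice.

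The 12 arrays measured whole Col-0 plants, wild type in every group as far as the labels say, aged 7 days and kept in continuous light at 21 °C, in Murashige and Skoog liquid culture. The mock treatment was DMSO, the solvent. The L-AOPP group was given 50 µM L-AOPP (2-aminoxy-3-phenylpropionic acid) for 3 h. L-AOPP+IAA plants received the same dose of L-AOPP and, 1 h later, 1 µM indole-3-acetic acid. L-AOPP+IPyA plants received L-AOPP and, 1 h later, indole-3-pyruvic acid, at 100 µM by the sample descriptions and 0.1 µM by the treatment protocol. Exposure to IAA or IPyA therefore lasted 2 h, and no group received IAA or IPyA without L-AOPP. Each group has 3 arrays; the labels do not say whether they came from separate cultures or how many plants each holds, so a p-value here reflects the spread between the arrays alone, and that spread may be technical.

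Auxin moves from cell to cell through PIN efflux carriers, whose placement on one side of the cell sets the direction of flow. WAG2 belongs to the AGC3 kinases with PINOID (PID), WAG1 and PID2. PID, WAG1 and WAG2 phosphorylate the central loop of PIN proteins, which affects where the carriers sit and how active they are. WAG1 and WAG2 are known from the strongly waving roots of the double mutant, and WAG2 also from the bending of the apical hook. IAA is the main natural auxin, IPyA its immediate precursor in the main plant pathway, and L-AOPP an aminooxy compound that the study used as an inhibitor of auxin synthesis.

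The WAG2 signal was 139.4, 194.2 and 248.8 on the mock arrays, 308.9, 325.2 and 416.1 with L-AOPP, 547.1, 576.6 and 585.7 with L-AOPP+IAA, and 263.2, 323.7 and 402.4 with L-AOPP+IPyA, each group listed from low to high. Every mock array lay below every treated array, and every L-AOPP+IAA array above all others, while the L-AOPP and L-AOPP+IPyA arrays overlapped. Even the lowest mock array was above the level of 47.4 at which probe sets were left out as dim.

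Group means were 194.1 ± 54.7 (SD, n = 3) in mock, 350.1 ± 57.8 with L-AOPP, 569.8 ± 20.2 with L-AOPP+IAA and 329.8 ± 69.8 with L-AOPP+IPyA. The arrays with IAA were the closest to each other, with a coefficient of variation of 3.54%, against 28.2% in mock, 16.5% with L-AOPP and 21.2% with L-AOPP+IPyA. In rising order the groups were mock, L-AOPP+IPyA, L-AOPP and L-AOPP+IAA, and only the middle pair lay within each other's spread. In whole plants, a change in the number of cells that hold a transcript and a change in its amount per cell cannot be told apart.

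**Figure D1:**
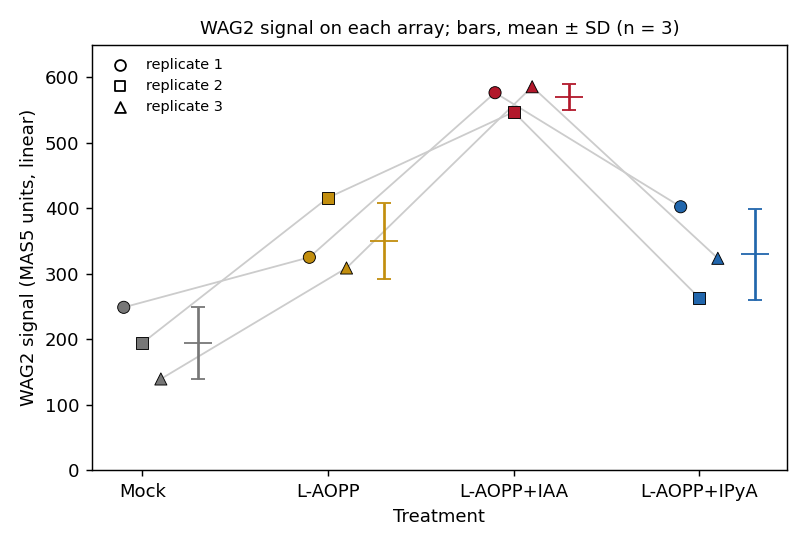
WAG2 signal (linear MAS5 units) on each of the 12 arrays by treatment, with grey lines joining arrays of the same replicate number and bars giving mean ± SD of 3 arrays. The 3 mock arrays (139.4 to 248.8) lie below all others and the 3 arrays with IAA (547.1 to 585.7) above all others.

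On the log2 scale, WAG2 was 0.88 ± 0.21 (SE of the limma fit) higher with L-AOPP than in mock, a 1.84-fold difference. With L-AOPP+IAA it was 1.59 ± 0.21 higher than in mock (3.02-fold) and 0.71 ± 0.21 higher than with L-AOPP alone (1.64-fold). With L-AOPP+IPyA it was 0.78 ± 0.21 above mock (1.72-fold) and 0.81 below L-AOPP+IAA (-0.81 ± 0.21). These differences share arrays with each other, so they are not separate observations, and they carry no test because they chose the gene.

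The step from L-AOPP to L-AOPP+IPyA was -0.10 on the log2 scale, with a 95% interval from -0.56 to 0.37 (unadjusted p = 0.662; adjusted p = 1.00 by limma over all 15922 probe sets). With the replicate number as a block the interval was -0.48 to 0.29 (adjusted p = 0.905). No difference was detected, though the choice of WAG2 placed both groups between mock and L-AOPP+IAA and so limited this difference. The interval spans both a moderate fall and a small rise. The estimate turned to 0.06 without L-AOPP+IPyA replicate 2 and to 0.04 without L-AOPP replicate 2, so it has no settled sign.

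Arrays of the same replicate number could be read together, since arrays with the same number deviated alike over the whole array. WAG2 was lowest in mock and highest with IAA within all 3 numbers, an order already fixed because those arrays overlap no other group. The difference of L-AOPP from mock was 0.39, 1.10 and 1.15 in numbers 1, 2 and 3, and that of L-AOPP+IAA from L-AOPP was 0.83, 0.39 and 0.92. Number 1 thus had the smallest first step and number 2 the smallest second step. IPyA against L-AOPP gave 0.31, -0.66 and 0.07, which differ in sign. Of the variance of WAG2 across the arrays, 85.5% went with the group, a share that the choice of the gene raised, and 4.06% with the replicate number. Within groups, which the choice did not use, 28% of the variance of WAG2 went with the number, against a median of 62.7% over all tested probe sets (5th to 95th percentile 8.36% to 93.4%).

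The order of means that chose WAG2 was shared by 1426 of the 15922 tested probe sets (8.96%). Far fewer showed it with groups that did not overlap. All mock arrays were lowest for 29 probe sets (0.182%), all L-AOPP+IAA arrays were highest for 245 (1.54%), and both held for 6 (0.0377%). Of these 6, WAG2 and AT5G50130 are the 2 with a single named gene. These counts describe the rule and are no test of WAG2.

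RNA integrity was read from the GAPDH controls, as 3' signal over 5' signal, which was 1.23 to 1.40 in mock, 1.15 to 1.34 with L-AOPP, 1.17 to 1.41 with L-AOPP+IAA and 1.12 to 1.51 with L-AOPP+IPyA. These ranges overlapped between all groups, and the part of RNA quality in the WAG2 differences was not tested. Of 11 root markers, 3 have a named probe set, and of 9 shoot markers none (0) does, so the label of whole plants could be checked for roots alone. The summed signal of EXPA7 and EXPA18, expansin genes of root hairs, and PYK10, a beta-glucosidase gene of root ER bodies, is mostly that of PYK10 and ranged from 17410 to 25560 in mock, 18660 to 24690 with L-AOPP, 19290 to 24810 with L-AOPP+IAA and 19860 to 24390 with L-AOPP+IPyA. EXPA7 was the most variable of them, from 258.7 to 1928.5 within mock alone. None of the 3 was called in any comparison, where no more than 3.71% of all probe sets were called in either fit. At an unadjusted p under 0.05 there were 0 without the block; with it there were 2 of 3 for L-AOPP against mock, 1 for IAA against L-AOPP and 2 for IPyA against L-AOPP, where 13.4%, 16% and 9.82% of all tested probe sets reached that level. For L-AOPP against mock, where WAG2 was higher, the log2 differences were 0.03 ± 0.14 for PYK10, 0.67 ± 0.61 for EXPA18 and 0.72 ± 0.78 for EXPA7 (SE without the block). The SEs with the block were 0.06, 0.18 and 0.22 in the same order. The part of these root markers in the WAG2 difference was not tested.

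Among the AGC3 kinases, PID2 is the only relative of WAG2 with a named probe set here; PID and WAG1 were not analysed here. The PID2 signal was 65.7, 82.5 and 84.4 in mock, 60.1, 95.4 and 96.6 with L-AOPP, 88.0, 120.2 and 158.0 with L-AOPP+IAA, and 86.1, 114.7 and 125.6 with L-AOPP+IPyA. The arrays with IAA and those with IPyA lay above all mock arrays, though close to them, and those with L-AOPP alone overlapped mock. PID2 differed from mock by 0.09 on the log2 scale with L-AOPP (95% interval -0.48 to 0.66), by 0.62 with L-AOPP+IAA (0.05 to 1.20) and by 0.48 with L-AOPP+IPyA (-0.09 to 1.05). None of these passed: the limma adjusted p was 1.00 for each, and 0.871, 0.0901 and 0.868 with the replicate block.

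The wider AGC family holds kinases such as D6PK, which also act on PIN carriers, and the phototropin blue-light receptors. Of 18 further members listed, 4 have a named probe set, and these are given by locus only. AT2G44830 averaged 249.3 ± 49.5 (SD, n = 3) in mock, 238.1 ± 36.9 with L-AOPP, 317.1 ± 57.7 with L-AOPP+IAA and 270.1 ± 49.7 with L-AOPP+IPyA. AT2G36350 stood at 313.9 ± 42.6, 343.4 ± 46.2, 296.8 ± 35.8 and 335.4 ± 16.1 in the same order. AT4G13000 averaged between 84.8 and 94.1 and AT3G10540 between 190.5 and 223.1, with groups that mostly overlapped.

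None (0) of the 5 other AGC kinases was called in any of the 6 comparisons by limma, with or without the replicate block. At an unadjusted p under 0.05 there was 1 without the block, PID2 for L-AOPP+IAA against mock, where 4.24% of all tested probe sets reached that level. With the block there were 2 for IAA against L-AOPP (PID2 and AT2G44830), 1 for IPyA against L-AOPP, 2 for L-AOPP+IAA against mock and 1 for L-AOPP+IPyA against mock. The shares of all tested probe sets at that level with the block were 16%, 9.82%, 12% and 5.54% in the same order. For L-AOPP against mock, where WAG2 stood 0.88 higher, the 5 lay between -0.06 and 0.13. The lists of auxin carriers (25 genes, the PIN, AUX1/LAX, ABCB and PILS families) and of carrier regulators (24 genes) have 0 named probe sets and were not analysed here.

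**Figure D2:**
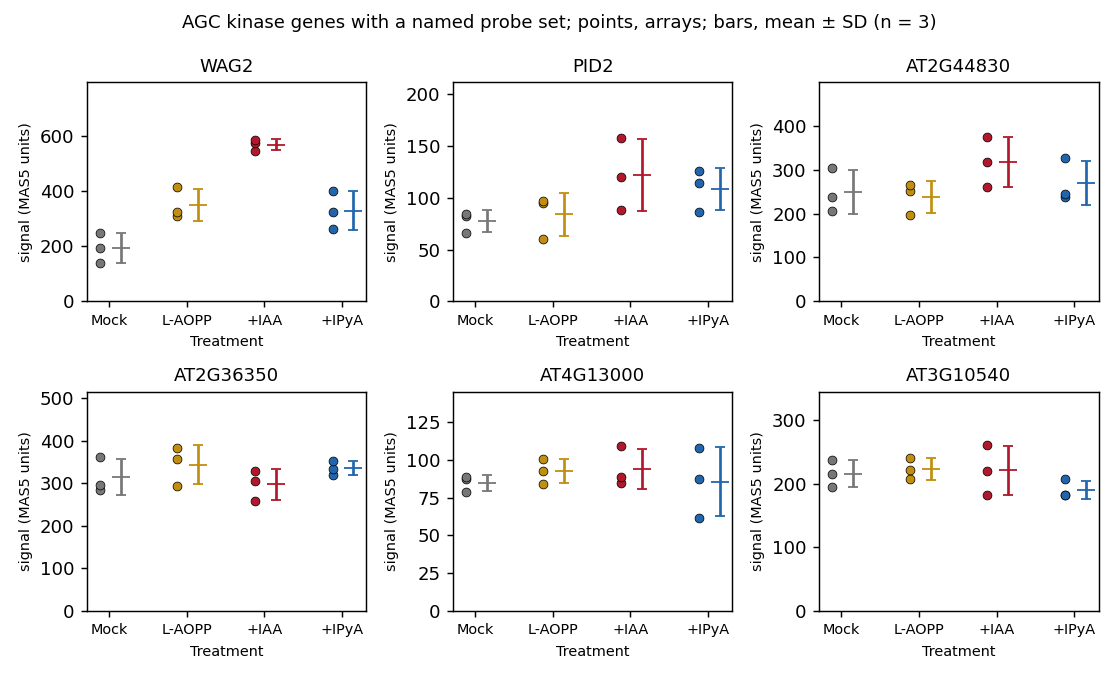
Signal (linear MAS5 units) of WAG2 and the 5 other AGC kinase genes with a named probe set, by treatment (+IAA and +IPyA stand for L-AOPP+IAA and L-AOPP+IPyA); points are arrays and bars mean ± SD (n = 3). WAG2 separates mock from all treated groups, whereas PID2 and the 4 others overlap between mock and L-AOPP.

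As a background for these counts, without the block limma called 0 probe sets (0%) for L-AOPP against mock, 63 (0.396%) for IAA against L-AOPP, 0 (0%) for IPyA against L-AOPP, 71 (0.446%) for L-AOPP+IAA against mock, 0 (0%) for L-AOPP+IPyA against mock and 60 (0.377%) for IPyA against IAA. The shares with the block were 0.578%, 3.71%, 0.176%, 1.7%, 0% and 1.94% in the same order. For the 3 comparisons with 0 calls, 528, 367 and 150 probe sets had an unadjusted p under 0.05. At such shares, 0 of 5 kinases is near what all probe sets show.

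Early auxin genes give the setting in which WAG2 can be read: they are transcribed within minutes to hours of auxin and include GH3 genes, which encode enzymes that conjugate IAA to amino acids, and Aux/IAA genes, which encode repressors of the response. Of 45 listed, 13 have a named probe set and 10 were tested. IAA29, IAA30 and PUCHI passed the filter on dim signals only through the L-AOPP+IAA arrays, where they were high, so they are left out of the counts. Of the 7 other genes, IAA raised 5 over L-AOPP in both fits and lowered 0, against 0.396% and 3.71% of all probe sets. In the fit without the block, the number fell to 3 without any single L-AOPP+IAA array, and likewise without replicate 2 or replicate 3 of L-AOPP. Arrays were not left out of the fit with the block. The median log2 difference of the 7 was 1.76, against -0.01 over all tested probe sets. Many of these genes are known auxin targets from earlier work in this species, and the list was drawn up with results of these arrays known.

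GH3.3 shows the scale of that response. Its signal was 300.3, 525.2 and 825.0 in mock and 8768.6, 10186.5 and 10386.7 with L-AOPP+IAA, far outside the mock range. From L-AOPP to L-AOPP+IAA it rose 11.9-fold (log2 3.58 ± 0.45, adjusted p = 0.00364 by limma). GH3.1 rose 10.2-fold (adjusted p = 0.0313) and WES1, another GH3 gene, 3.14-fold (adjusted p = 0.0313), both nearer the threshold in this fit without the block. With the block the limma adjusted p was 2.34e-06 for GH3.3, 0.000349 for GH3.1 and 1.73e-05 for WES1. IAA29 and IAA30 averaged 44.4 and 48.2 with L-AOPP, at about the dim level of 47.4, and 236.0 and 322.2 with L-AOPP+IAA. With so low a baseline, no fold is given for them.

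The steps of WAG2 can be set beside those of the 7 genes as a description. Its difference of L-AOPP+IAA from L-AOPP, 0.71, was smaller than that of 5 of the 7 genes, while none (0) of the 7 had a larger difference of L-AOPP from mock than its 0.88. For WAG2, 55.1% of the log2 difference between mock and L-AOPP+IAA was already present with L-AOPP alone. For the 7 genes this share was between 8.78% (HAT2, a homeodomain-leucine zipper gene) and 37.6% (IAA20), with a median of 16.1%. WAG2 was picked for its levels in these same groups, so this contrast was not tested and supports nothing about the gene. All 7 lay above 0 for L-AOPP against mock, from 0.14 to 0.69, but 0 were called in either fit. Of all tested probe sets, 0% without the block and 0.578% with it were called there. At an unadjusted p under 0.05 there were 0 without the block and 3 with it, where 13.4% of all tested probe sets reached that level.

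With IPyA, 0 of the 7 genes were called against L-AOPP in either fit, where 0% and 0.176% of all tested probe sets were. At an unadjusted p under 0.05 there were also 0 in both fits, where 2.3% and 9.82% of all tested probe sets reached that level. Such counts of 0 are near what all probe sets show. The median log2 difference of the 7 was -0.07 and 3 of 7 lay above 0. The WAG2 value of -0.10 lay inside their range of -0.38 to 0.23. Against L-AOPP+IAA, 5 of 7 were called lower with L-AOPP+IPyA in both fits, GH3.3 the most (log2 difference -3.84 ± 0.45, adjusted p = 0.00211 by limma). Of all tested probe sets, 0.377% without the block and 1.94% with it were called there in either direction. In the fit without the block, the number of the 7 called fell to 3 without any single L-AOPP+IAA array, or without replicate 2 or replicate 3 of L-AOPP+IPyA. WAG2 stood at -0.81 in the same comparison.

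**Figure D3:**
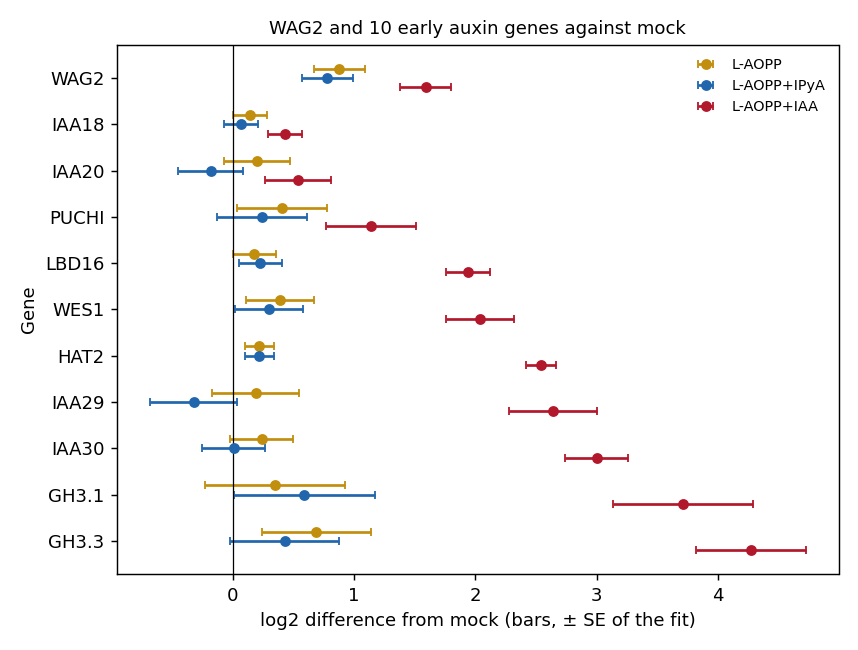
Log2 difference from mock (± SE of the limma fit) of WAG2 and the 10 tested early auxin genes with L-AOPP, L-AOPP+IPyA and L-AOPP+IAA. For WAG2 the point for L-AOPP (0.88) lies past the midpoint between mock and L-AOPP+IAA (1.59), while for GH3.3 it lies at 0.69 of 4.27. IAA29, IAA30 and PUCHI passed the filter only through their L-AOPP+IAA arrays.

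Light, shade and apical hook genes form another setting in which WAG2 is known to act. Of 18 listed, 3 have a named probe set: YUC2, a flavin monooxygenase gene of auxin synthesis, FHL, which acts in the nuclear import of phytochrome A, and BIM1, a transcription factor gene of brassinosteroid signalling. None (0) of the 3 was called in any comparison in either fit. No more than 3.71% of all probe sets were called in any comparison, so 0 of 3 does not set these genes apart. Without the block, 1 had an unadjusted p under 0.05, in L-AOPP+IPyA against mock, where 0.942% of all probe sets reached that level. With it there was 1 there and 1 in IPyA against IAA, where 5.54% and 10.4% of all probe sets did. For L-AOPP against mock the 3 lay between -0.14 and 0.22.

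The genes most like WAG2 were ranked by Pearson r of log2 signal over the 12 arrays, among 8707 probe sets with 1 gene. The 5th to 95th percentile of r was -0.46 to 0.49, and 15 probe sets were above 0.8. The 8 highest were AT3G26760 (r = 0.88), AT3G55720 (0.85), GH3.3 (0.85), AT3G51410 (0.83), AT5G54130 (0.83), AT1G29660 (0.83), WES1 (0.83) and AT1G48690 (0.82). All 8 had their lowest mean in mock and their highest with L-AOPP+IAA, which is the pattern that chose WAG2. Without the 2 arrays farthest from the median of WAG2 (mock replicate 3 and L-AOPP+IAA replicate 3) their r was 0.73 to 0.87.

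AT3G26760, the closest, averaged 354.1 in mock, 473.4 with L-AOPP, 962.6 with L-AOPP+IAA and 406.5 with L-AOPP+IPyA. Its rise from L-AOPP to L-AOPP+IAA was 1.02 on the log2 scale. This gene was picked for its likeness to WAG2 on these same arrays, so no p-value is given for its steps. AT3G55720, picked in the same way, had a larger step from mock to L-AOPP (1.52) than from L-AOPP to L-AOPP+IAA (1.09). That is the same order of steps as WAG2, but AT3G55720 was called in neither, with or without the block. Because of how it was picked, this is no test of the gene. Its mock mean of 38.1 is under the dim level.

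The 3 lowest were AT5G42670 (r = -0.86), AT2G32970 (-0.85) and AT4G35985 (-0.85), each highest in mock and lowest with L-AOPP+IAA. AT4G35985 averaged 678.8 in mock and 468.1 with L-AOPP+IAA. None (0) of the 3 was called for L-AOPP against mock, where 0% and 0.578% of all tested probe sets were called without and with the block. The same held for IAA against L-AOPP, where 0.396% and 3.71% were called. These 3 genes were picked for their r with WAG2 on these same arrays, so the count is no test of them.

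Subtracting each group's mean leaves the variation among replicates, which the choice of WAG2 did not use. On that measure the 8 genes had r between 0.34 (AT1G48690) and 0.72 (AT1G29660), with 0.68 for GH3.3 and 0.44 for WES1, against a 5th to 95th percentile of -0.57 to 0.58 over all 8707. AT4G35985 had -0.80. The 5 highest within groups were AT1G77700 (0.90), AT1G51620 (0.88), AT3G25870 (0.88), AT1G36990 (0.87) and ALN (0.87), the allantoinase gene of purine breakdown. None (0) of these 5 is among the 8 above, and their r over the 12 arrays was 0.53 or less, with -0.26 for ALN. The points share the replicate structure of the arrays, so these values describe likeness on these 12 arrays and no more.

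**Figure D4:**
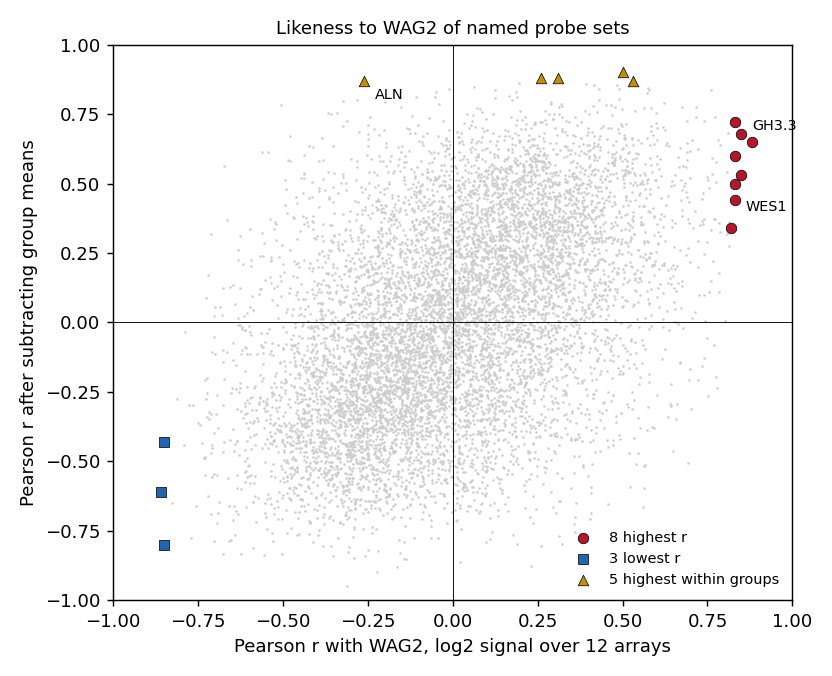
Pearson r with WAG2 over the 12 arrays (horizontal) and after subtracting group means (vertical) for 8707 named probe sets, with the named genes marked. The 8 genes of highest r lie at 0.34 to 0.72 on the vertical axis, and the 5 highest within groups lie at 0.53 or less on the horizontal axis.

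Neighbours on the chromosome were read in the same way. Of the 10 nearest protein-coding genes of WAG2, 5 on each side in the RefSeq annotation of TAIR10.1, 5 were tested: AT3G14330, AT3G14340, AT3G14360, UBP25, a ubiquitin protease gene, and AT3G14410. They were picked by position and not by value. None (0) was called by limma in any comparison in either fit, but no more than 3.71% of all probe sets were called in any of them, so 0 of 5 does not set the neighbours apart. Of their 30 values, 0 had an unadjusted p under 0.05 without the block and 2 with it, both of UBP25, where 5.54% to 16% of all probe sets reached that level. Their log2 differences lay between -0.25 and 0.34, and their r with WAG2 between -0.29 and 0.25.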

How the data were processed

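Each array file, as deposited, holds 1 linear intensity per probe set. Per the submitters' processing notes the authors used MAS5, with version and settings not given in the sources used here; its scaling and probe model can move low signals. With the lowest and highest 2% of signals trimmed, all arrays had a mean of 500.0, and medians were 169 to 185. The number of arrays limits the precision.

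Values under 0.05 were raised to 0.05 and log2 was taken. The 64 controls and 6824 probe sets at or below the 30th percentile of mean log2 signal (47.4) were left out. limma 3.58.1 in R 4.3.3 (lmFit, contrasts, eBayes with trend) was fitted over all 12 arrays and 15922 probe sets, two-sided, and a call is a Benjamini-Hochberg adjusted p under 0.05. It was tested on simulated data first. Names come from GEO's platform annotation through gene IDs: 13513 probe sets have 1 gene, 503 several and 8730 are not listed.

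Replicate numbers were taken to pair arrays: deviations from group means correlated at 0.501 to 0.685 in the 18 pairs of arrays with the same number and at -0.582 to 0.123 in the 36 pairs from different groups and numbers. The fit with the number as a block is given beside the other.

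WAG2 and the lists were chosen with earlier results of these data known. Named genes were WAG2, tested AGC kinases and carrier genes, up to 4 called members of each other list by size, the 8 highest and 3 lowest r with WAG2 and the 5 highest r within groups. The other genes named (members of short lists, genes at the ends of a range, chromosomal neighbours) were added after values were seen.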

Additional observations from a re-analysis of the deposited data

How the results depend on the processing

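The WAG2 differences were recomputed under quantile normalization, median centring, log2(signal + 16), either other filter, no intensity trend, a fit of only the 2 groups, the replicate block and each array left out. In all, 82 values kept their sign and, where untested, moved by less than the SD of 0.29 within groups. The other 2 were of IPyA minus L-AOPP, which was 0.06 when replicate 2 of L-AOPP+IPyA was left out and 0.04 when replicate 2 of L-AOPP was. Much of this was fixed in advance. The filters, the trend, the fit of only the 2 groups and the block cannot change a WAG2 difference, only its SE. In every comparison but IPyA minus L-AOPP the arrays did not overlap, so leaving 1 out could not change the sign. With 1 array left out, the ranges were 0.66 to 1.08 for L-AOPP minus mock, 0.63 to 0.85 for IAA minus L-AOPP, -0.25 to 0.06 for IPyA minus L-AOPP, 1.37 to 1.79 for IAA minus mock, 0.56 to 0.98 for IPyA minus mock and -0.96 to -0.66 for IPyA minus IAA. The share of variance with the group was 84.3% after quantile normalization.

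Counts of called probe sets moved most with the replicate block, to 92 (L-AOPP minus mock), 590 (IAA minus L-AOPP), 28 (IPyA minus L-AOPP), 270 (IAA minus mock) and 309 (IPyA minus IAA), from 0, 63, 0, 71 and 60. The block changed no call among the AGC kinases. For IAA minus mock it added IAA18 (log2 difference 0.43, adjusted p = 0.0441 by limma with the block) to the early auxin genes called. That made 8 in place of 7 of the 10 tested, a count that takes in genes that passed the filter only through the IAA arrays. Of the 7 genes that pass without those arrays it made 6 in place of 5. The stricter filter, which tests fewer probe sets, gave 35, 37 and 33 calls for the 3 comparisons with calls. It called 4 early auxin genes in each, but it also leaves out the dimmer of the 10, so that number is not out of 10. A fit of only the 2 groups gave 38 for IAA minus mock. With 1 array left out, in fits without the block, there were 23 to 37 calls for IAA minus L-AOPP, 30 to 69 for IAA minus mock and 25 to 48 for IPyA minus IAA. Of the 10 early auxin genes, 4 to 5, 4 to 7 and 5 to 6 were called. Of the 7 that pass the dim level without the IAA arrays, a choice made after the data were seen, 5 were called in each of these comparisons, and 3 to 4, 3 to 5 and 3 to 4 with 1 array left out.

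The genes most like WAG2 depend on the measure. Of the 8, 3 were among the highest 8 by Spearman's rho, 3 after subtracting replicate number means (the pairing by block), 6 after quantile normalization, and 2 to 7 with 1 array left out, a setting added after the data were seen. The cause was not tested.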
